A study of Mus musculus with 6 samples.

Results

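Genes of the presynaptic vesicle cycle and of SNARE-driven membrane fusion were examined in right hippocampi from male mice of strain C57BL/6J after transient middle cerebral artery occlusion (tMCAO, 3 libraries) and after a Sham procedure (3 libraries). In tMCAO mice a silicone-coated filament closed the right middle cerebral artery through the internal carotid artery for 50 min and was then withdrawn. No source used here gives the time between reperfusion and tissue collection, the age of the mice, or whether each library came from 1 mouse. All mice of both groups had the same strain and sex and were perfused with saline under anesthesia before the hippocampus was taken, and poly(A) RNA was sequenced. The genes were chosen by name: protein-coding genes named as synaptotagmins (Syt), syntaxins (Stx), syntaxin-binding proteins (Stxbp), Vamp, Snap, complexins (Cplx), Unc13, Rims, Sv2, synapsins (Syn), Rab3, Bsn, Pclo or Syp. This gave 76 genes of the 53465 in the table of all genes. Of these, 74 were in the authors' comparison table, and 69 had a mean of at least 0.5 FPKM (fragments scaled to exon length and library depth) over the 6 libraries and were tested.

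A synaptic vesicle releases transmitter when the vesicle SNARE synaptobrevin (Vamp) zips together with syntaxin-1 and SNAP-25 on the presynaptic membrane. Munc18 and Munc13 proteins assemble and prime this complex, complexin clamps and activates it, and synaptotagmin triggers fusion when it binds calcium. The active zone scaffolds RIM, bassoon and piccolo hold primed vesicles beside calcium channels, and other SNAREs serve fusion at endosomes, the Golgi apparatus and non-neuronal plasma membranes.

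After tMCAO, 8 of the 69 tested genes fell and 2 rose, by limma with Benjamini-Hochberg adjustment over all 17561 tested genes (adjusted p below 0.05). The genes that fell included 4 of 9 tested active zone and priming genes: Unc13a, Pclo, Rims1 and Rims3. Those that rose were Stxbp3, which encodes Munc18c, and Stx3, which encodes syntaxin-3. The abundant core genes of vesicles and of the fusion machinery, among them Snap25, Vamp2, Syp, Syt1 and Syn1, did not pass. In the same test 16.2% of all tested genes passed (8.93% higher and 7.28% lower), and 14.5% of the tested presynaptic and SNARE genes did. The share of these genes that passed was thus near that of all tested genes and is no result about the set. Their median log2 fold change (tMCAO over Sham, on the log2(FPKM + 1) scale) was -0.03, against 0.00 for all tested genes, with 33 genes above 0 and 36 below. The groups did not overlap in 24 of the 69 genes (34.8%, 10 higher and 14 lower), whereas they did not overlap in 43.4% of all tested genes (23.1% higher and 20.3% lower).

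Both groups held libraries that stood apart. Summed FPKM of 9 striatal neuron markers was 111, 76.7 and 530 in tMCAO 1, 2 and 3, and 128, 634 and 154 in Sham 1, 2 and 3. Summed FPKM of 6 choroid plexus markers was 591, 354 and 9.04 in tMCAO, and 654, 24.7 and 729 in Sham. tMCAO 3 and Sham 2 were therefore high for the first list and low for the second. The hippocampal markers Prox1, of dentate granule cells, and Fibcd1, of CA1 neurons, were present in all 6 libraries, but tMCAO 3 held 1.75 FPKM of Prox1 and 1.996 FPKM of Fibcd1, and Sham 2 held 2.09 and 2.93 FPKM, against 5.82 to 8.68 FPKM in the other 4 libraries. Other markers of the same list went the other way, since tMCAO 3 held 61.7 FPKM of Wfs1 and 404 FPKM of Camk2a, and Sham 2 held 38.0 and 352 FPKM, each the highest of its group. Summed FPKM of 8 general neuronal markers was 683 to 778 in tMCAO and 814 to 833 in Sham, and none of the 8 passed limma (2 at an unadjusted p below 0.05, none with voom). Of 7 hippocampal principal neuron markers 2 were lower (Calb1, log2 fold change -0.42, limma adjusted p = 0.021, and Zbtb20, -0.57, adjusted p = 0.032). Of 7 microglia markers 4 were lower (P2ry12 at a ratio of means of 0.253), and of 7 astrocyte markers Gfap was higher (ratio 2.86). Of 6 endothelial markers 2 were lower (Tek and Slco1a4) and 1 higher (Cdh5). Summed FPKM of 7 oligodendrocyte markers was 1446, 1019 and 726 in tMCAO 1, 2 and 3, and 868 to 1069 in Sham. None of the oligodendrocyte markers passed limma. An alternative fit, named below as the striatal covariate, adjusted for the mean log2(FPKM + 1) of the 8 tested striatal markers in each library. Apart from this adjustment, the part of these cell types in the results below was not tested. In such bulk tissue, fewer cells of a type and less RNA per cell cannot be told apart. Between 57797190 and 66157969 reads were recovered on genes per tMCAO library, and between 39027684 and 46278429 per Sham library. Without Sham 2 and tMCAO 3, which leaves 2 libraries a group, 7 of the 69 genes were lower and 2 higher (12.1% of all tested genes passed). These were in part other genes. Of the 10 calls in all libraries 5 held and 5 were lost, while Rab3c, Stx1a, Stxbp5l and Vamp8 passed in the smaller fit and not in the fit of all libraries.

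Leaving out 1 library moved the count widely. With 10 genes past the threshold in all libraries, 3, 7 and 12 passed without tMCAO 1, 2 and 3, and 0, 2 and 0 without Sham 1, 2 and 3. The shares without tMCAO 1, 2 and 3 were 4.35%, 10.1% and 17.4%, against 8.67%, 12.4% and 22.2% of all tested genes. Without Sham 1, 2 and 3 they were 0%, 2.9% and 0%, against 0.706%, 2.39% and 0.427%. The count thus moved with that of all tested genes, and its swing is no result about the set. The limma fits without Sham 1 and without Sham 3 called 124 and 75 of all tested genes, against 2847 in the full fit. Of the 69 genes, 17 and 15 had an unadjusted p below 0.05 in these fits. In the full limma fit 20 of the 69 did, as did 6317 of all 17561 tested genes. Such unadjusted counts, here and for the classes below, are therefore no result about these genes. Without Sham 2 the calls of Unc13a and Stxbp3 held, and without Sham 1 or Sham 3 no call did. The log2 fold changes of Unc13a were then -1.003 and -0.97, against -0.95 in all libraries, and those of Stxbp3 were 0.91 and 0.96, against 0.88.

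**Figure D1:**
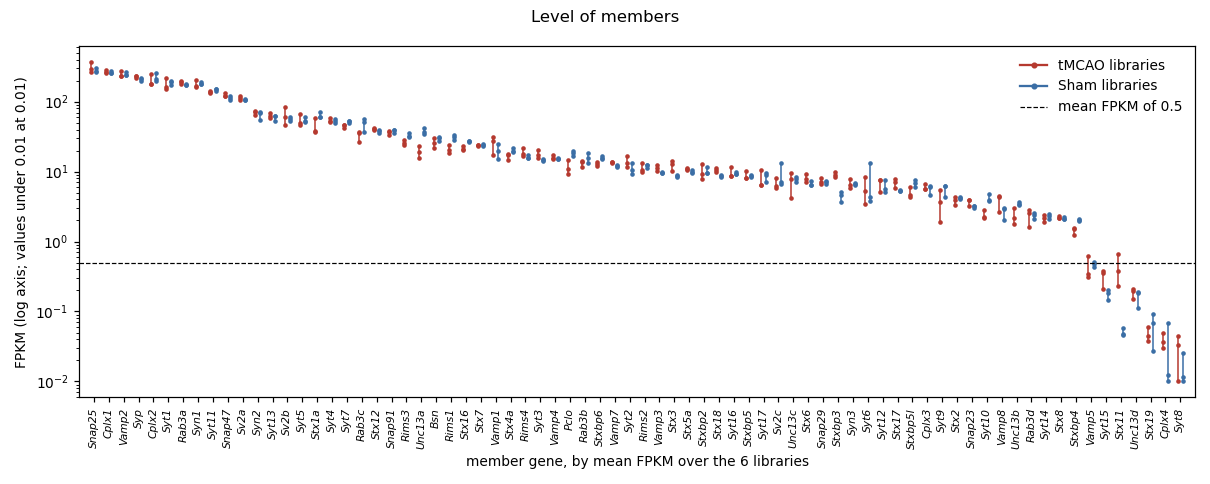
FPKM on a log axis of 74 of the genes in order of their mean level, with the 3 tMCAO libraries in red left of the 3 Sham libraries in blue for each gene; lines join the lowest and highest library, and the dashed line marks a mean of 0.5 FPKM. The levels run from Snap25 at 308 and 283 FPKM (tMCAO and Sham means) to genes near 0, and among the 6 most abundant genes the groups overlap in all but Syp.

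In 13 of the 76 genes the mean exceeded 100 FPKM, and they held 70.4% of the summed mean FPKM of the set. The highest were Snap25, Cplx1, Vamp2, Syp, Cplx2 and Syt1, in that order, all of them parts of the vesicle or its fusion machine. None of the 15 highest genes passed, and their log2 fold changes lay between -0.16 and 0.12. In the plot of levels 7 genes lie below the filter, of which Vamp5, Syt15, Stx11, Unc13d and Stx19 were in the comparison table and Cplx4 and Syt8 were not. Across the 69 tested genes, level and log2 fold change were unrelated in rank (Spearman rho -0.004), a description over genes that share libraries.

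Active zone and priming genes had 9 tested members, of which 4 fell, none rose and 5 did not pass. The share that fell was 44.4%, against 7.28% of all tested genes. The class is small and was drawn up with earlier results of these data known. It had 2, 2 and 3 lower calls without tMCAO 1, 2 and 3, and 0, 1 and 0 without Sham 1, 2 and 3. Of all tested genes, 689, 1009 and 1722 were lower in the first 3 of these fits, and 42, 181 and 17 in the last 3. The median log2 fold change of the 9 genes was -0.33. Their summed FPKM, with Unc13d included, was 137, 138 and 155 in tMCAO 1, 2 and 3, against 179, 197 and 194 in Sham 1, 2 and 3. Every tMCAO library lay below every Sham library, and tMCAO 3 was nearest to Sham. The sums include the 4 genes that fell, so they restate those calls in part and are no separate result for the class.

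Unc13a encodes Munc13-1, which opens syntaxin-1 and makes docked vesicles ready for fusion. It had 15.9, 18.8 and 22.9 FPKM in tMCAO 1, 2 and 3, against 34.9, 41.7 and 36.6 FPKM in Sham 1, 2 and 3. All tMCAO values were well below all Sham values, with means of 19.2 ± 3.53 FPKM in tMCAO and 37.8 ± 3.53 in Sham (SD, n = 3 each). The log2 fold change was -0.95 (SE 0.14, limma adjusted p = 0.013), and the exact two-sided permutation test gave p = 0.10, the smallest that 3 libraries against 3 allow. The call held without both Sham 2 and tMCAO 3 (log2 fold change -1.01, adjusted p = 0.012) and was lost without Sham 1 or Sham 3 (adjusted p up to 0.063). The gene (ENSMUSG00000034799) lies on chromosome 8 from 71624417 to 71671757 on the minus strand, in GRCm38, and shares 3.9% of its exon length with Colgalt1 on the opposite strand.

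Rims1 encodes RIM1, which binds Rab3 on the vesicle, Munc13 and calcium channels. It had 18.5, 20.5 and 24.3 FPKM in tMCAO 1, 2 and 3, against 28.4, 31.7 and 32.9 FPKM in Sham 1, 2 and 3, without overlap. For Rims1 the log2 fold change came to -0.54 (SE 0.11, limma adjusted p = 0.025), and -0.62 without Sham 2 and tMCAO 3 (adjusted p = 0.028). Pclo encodes piccolo, a giant scaffold of the active zone. It had 9.27, 10.9 and 14.6 FPKM in tMCAO 1, 2 and 3, against 16.9, 18.5 and 19.7 FPKM in Sham 1, 2 and 3, so the groups were apart, with tMCAO 3 nearest to Sham. For Pclo the log2 fold change came to -0.64 (SE 0.15, limma adjusted p = 0.037), and -0.80 without Sham 2 and tMCAO 3 (adjusted p = 0.023). Rims3 encodes a short RIM that keeps only the C-terminal part of the family. It had 28.7, 24.4 and 25.4 FPKM in tMCAO 1, 2 and 3, against 32.4, 31.7 and 35.2 FPKM in Sham 1, 2 and 3, again without overlap but with a smaller distance. For Rims3 the log2 fold change came to -0.33 (SE 0.08, limma adjusted p = 0.042), and this call was lost without Sham 2 and tMCAO 3 (adjusted p = 0.081). Each of the 3 calls was also lost without any 1 Sham library and without tMCAO 2, those of Rims1 and Pclo without tMCAO 1, and that of Rims3 without tMCAO 3 (adjusted p up to 0.16).

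The other active zone genes did not pass. Unc13b, the Munc13-2 gene, had 1.81, 3.01 and 2.15 FPKM in tMCAO, against 3.49, 3.33 and 3.67 FPKM in Sham (limma adjusted p = 0.064). Its groups did not overlap, and it passed with a striatal covariate and without tMCAO 2 (adjusted p down to 0.026). Bsn, the gene of bassoon, had 21.7 to 29.8 FPKM in tMCAO and 27.8 to 31.5 FPKM in Sham, with a 95% interval of the log2 fold change from -0.50 to 0.06. Unc13c, Rims2 and Rims4 overlapped between the groups. Rims4, another short RIM, had the only log2 fold change above 0 in the class (0.20, interval -0.04 to 0.45).

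**Figure D2:**
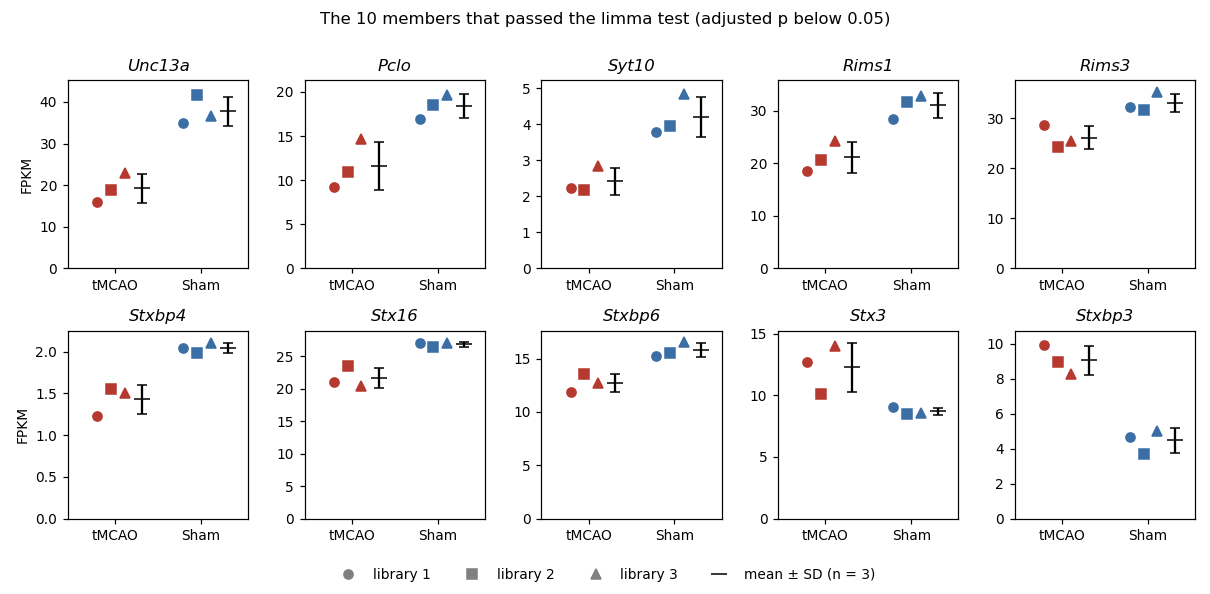
FPKM of the 10 genes that passed, one panel each, with points for the libraries (tMCAO red, Sham blue; circle, square and triangle for libraries 1, 2 and 3) and the mean ± SD of 3 beside them; every axis starts at 0. The groups do not overlap in any panel, and Unc13a in tMCAO averages 19.2 against 37.8 FPKM in Sham.

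The sequences before the start sites of the active zone genes that fell are shown beside those of the genes that rose, since these genes moved in opposite directions. Each window is the 250 bases before the RefSeq transcript start in GRCm38.p6, written 5′ to 3′ in the direction of the gene. Capitals mark GC boxes (GGGCGG on either strand, the Sp1 motif) and, in Stxbp3, a cAMP response element (TGACGTCA, a palindrome).
Unc13a (chr8:71671758-71672007, minus strand): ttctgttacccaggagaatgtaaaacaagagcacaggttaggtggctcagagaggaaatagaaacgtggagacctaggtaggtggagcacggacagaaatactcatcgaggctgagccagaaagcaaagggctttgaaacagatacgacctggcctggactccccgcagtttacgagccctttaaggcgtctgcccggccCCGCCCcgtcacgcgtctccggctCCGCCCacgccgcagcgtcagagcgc
Rims1 (chr1:22806159-22806408, minus strand): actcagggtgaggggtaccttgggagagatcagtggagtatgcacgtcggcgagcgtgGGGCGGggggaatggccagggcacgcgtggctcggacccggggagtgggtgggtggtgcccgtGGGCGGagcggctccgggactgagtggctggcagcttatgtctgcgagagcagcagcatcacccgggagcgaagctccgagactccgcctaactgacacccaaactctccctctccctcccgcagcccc
Pclo (chr5:14514668-14514917, plus strand): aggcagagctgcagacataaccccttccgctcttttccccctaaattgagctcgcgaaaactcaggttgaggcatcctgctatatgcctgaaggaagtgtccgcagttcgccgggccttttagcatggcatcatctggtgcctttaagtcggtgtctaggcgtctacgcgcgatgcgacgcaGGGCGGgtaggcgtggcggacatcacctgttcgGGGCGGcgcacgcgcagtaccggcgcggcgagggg
Rims3 (chr4:120854549-120854798, plus strand): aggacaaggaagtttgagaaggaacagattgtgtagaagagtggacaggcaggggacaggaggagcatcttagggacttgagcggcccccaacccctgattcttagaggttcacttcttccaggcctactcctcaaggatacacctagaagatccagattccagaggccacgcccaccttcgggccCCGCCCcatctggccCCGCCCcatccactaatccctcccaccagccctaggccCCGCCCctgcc
Stxbp3 (chr3:108840503-108840752, minus strand): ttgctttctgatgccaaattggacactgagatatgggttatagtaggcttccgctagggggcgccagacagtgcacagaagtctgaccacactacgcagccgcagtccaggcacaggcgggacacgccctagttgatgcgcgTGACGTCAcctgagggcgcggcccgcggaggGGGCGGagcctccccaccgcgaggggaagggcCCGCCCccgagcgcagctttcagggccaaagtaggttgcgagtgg
Stx3 (chr19:11819404-11819653, minus strand): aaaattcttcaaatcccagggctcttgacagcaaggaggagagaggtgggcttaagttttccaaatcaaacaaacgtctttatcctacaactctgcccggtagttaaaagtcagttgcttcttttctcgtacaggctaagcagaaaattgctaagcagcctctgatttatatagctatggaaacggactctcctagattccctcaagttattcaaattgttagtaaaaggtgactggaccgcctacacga
In RefSeq windows that matched 59 of the 76 genes by symbol, 43 genes held a GC box, while 33% of the 32536 distinct windows of all genes did. For each motif here a gene counted if any of its windows held it, whereas the percentages of all genes are per window. The counts and percentages are therefore of unlike units and cannot be compared directly. All 4 active zone genes held 2 or 3 GC boxes, as did Stxbp3 with 2, so this motif did not separate genes that fell from genes that rose. Of the other genes that fell, Syt10 held 3, Stxbp4 1 and Stxbp6 0, and the windows of Stx16 held 0 and 1. The window of Stx3 held none, and was the poorest of the 6 in G and C, at 42%, against a median of 60.8% over the 75 windows of the set and 52.4% over all windows. The full cAMP response element was found in 2 of the 59 genes, Stxbp3 among them, and in 1.56% of all windows. Of the other motifs searched on both strands, the E-box CACGTG was found in 8 genes (6.04% of all windows), TATAAA in 4 (12.3%), the NRF1 motif in 3 (0.784%) and an NF-kB motif in none (0.141%). A match is a description of the letters and not evidence of binding.

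Munc18 and other syntaxin-binding proteins had 7 tested members, of which 1 rose, 2 fell and 4 did not pass. In this small class 42.9% passed, against 16.2% of all tested genes. Stxbp3 encodes Munc18c, the broadly expressed Munc18 that pairs with syntaxin-4 in regulated exocytosis outside the synapse. It had 9.93, 8.95 and 8.26 FPKM in tMCAO 1, 2 and 3, against 4.69, 3.69 and 5.03 FPKM in Sham 1, 2 and 3. The lowest tMCAO library stood well above the highest Sham library, and the ratio of the means was 2.02. The log2 fold change was 0.88 (SE 0.12, limma adjusted p = 0.011), and 0.83 without Sham 2 and tMCAO 3 (adjusted p = 0.014). The call was lost without Sham 1 or Sham 3 (adjusted p up to 0.053). The gene (ENSMUSG00000027882) lies on chromosome 3 from 108793176 to 108840526 on the minus strand.

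Stxbp6 encodes amisyn, a SNARE-like protein that binds syntaxin-1 and holds back fusion. It had 11.9, 13.5 and 12.7 FPKM in tMCAO 1, 2 and 3, against 15.3, 15.6 and 16.6 FPKM in Sham 1, 2 and 3 (log2 fold change -0.29, SE 0.07, limma adjusted p = 0.041). Stxbp4 encodes Synip, a partner of syntaxin-4. It had 1.23, 1.56 and 1.5 FPKM in tMCAO 1, 2 and 3, against 2.04, 1.98 and 2.10 FPKM in Sham 1, 2 and 3 (log2 fold change -0.33, SE 0.09, limma adjusted p = 0.046). In both genes the groups were apart, but both calls were lost without Sham 2 and tMCAO 3 (adjusted p = 0.085 and 0.086), without any 1 Sham library and without tMCAO 1, and that of Stxbp4 also without tMCAO 2, without a filter and with quantile normalization (adjusted p up to 0.16). Stxbp5l, a tomosyn gene, had 4.4, 4.55 and 5.95 FPKM in tMCAO and 6.85, 6.05 and 7.63 FPKM in Sham (limma adjusted p = 0.071), and passed as lower without tMCAO 3, without tMCAO 3 and Sham 2 together, and with library weights (adjusted p down to 0.012).

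The 5 SNAREs of transmitter release had no gene that passed limma (1 at an unadjusted p below 0.05, and none with voom). Snap25 had 292, 266 and 368 FPKM in tMCAO 1, 2 and 3, against 268, 304 and 278 FPKM in Sham 1, 2 and 3. The highest value was that of tMCAO 3, and the lowest that of tMCAO 2, so the Sham libraries lay within the tMCAO range. Its log2 fold change was 0.11, with an interval from -0.21 to 0.43. Vamp2, the synaptobrevin of most forebrain synapses, had 236, 232 and 273 FPKM in tMCAO, against 239, 265 and 243 FPKM in Sham (log2 fold change -0.02, interval -0.24 to 0.21).

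Stx1a encodes syntaxin-1A, a SNARE of the presynaptic membrane. It had 36.7, 38.4 and 58.7 FPKM in tMCAO 1, 2 and 3, against 61.2, 71.4 and 59.6 FPKM in Sham 1, 2 and 3. tMCAO 1 and 2 were far below Sham, whereas tMCAO 3 was just below the lowest Sham library. The log2 fold change was -0.54 (SE 0.18, limma adjusted p = 0.082), and the gene passed without tMCAO 3, without Sham 2 and tMCAO 3, with library weights and with a striatal covariate (adjusted p down to 0.0081). Vamp1, the other synaptobrevin, had 31.3, 27.4 and 17.2 FPKM in tMCAO, against 24.9, 15.2 and 20.0 FPKM in Sham. It was lowest within each group in tMCAO 3 and Sham 2, the libraries high in striatal markers.

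None of the 3 tested complexin genes passed (none at an unadjusted p below 0.05, and none with voom). Cplx1 had 263, 254 and 280 FPKM in tMCAO, against 254, 273 and 256 FPKM in Sham (interval of the log2 fold change -0.17 to 0.22). Cplx2 had 176, 181 and 246 FPKM in tMCAO and 196, 258 and 210 FPKM in Sham (interval -0.53 to 0.24), and was highest within each group in tMCAO 3 and Sham 2. Cplx3 stayed between 4.61 and 6.72 FPKM in all libraries, and Cplx4 was at 12 reads in all over the tMCAO libraries and 6 over the Sham libraries.

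Of 8 synaptotagmins that bind calcium, Syt10 fell and the others did not pass (12.5% passed, against 16.2% of all tested genes). Syt10, a sensor of regulated secretion known from olfactory bulb neurons of the mouse, had 2.23, 2.19 and 2.85 FPKM in tMCAO 1, 2 and 3, against 3.79, 3.95 and 4.82 FPKM in Sham 1, 2 and 3. The groups were apart, with 805 reads over the tMCAO libraries and 985 over the Sham libraries, and the ratio of the means was 0.578. For Syt10 the log2 fold change was -0.60 (SE 0.12, limma adjusted p = 0.023), and -0.72 without Sham 2 and tMCAO 3 (adjusted p = 0.031). The call was lost without any 1 Sham library and without tMCAO 1 or tMCAO 2 (adjusted p up to 0.092).

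Syt1, the fast calcium sensor of release, had 152, 163 and 220 FPKM in tMCAO, against 175, 196 and 192 FPKM in Sham (log2 fold change -0.09, interval -0.44 to 0.25). tMCAO 1 and 2 were below and tMCAO 3 above every Sham library. Syt5 followed the same order, with 50.3, 46.6 and 66.4 FPKM in tMCAO and 51.6, 61.2 and 53.2 FPKM in Sham. Syt7, the sensor of asynchronous release and of vesicle replenishment, had 41.5, 46.4 and 46.0 FPKM in tMCAO and 53.3, 49.1 and 53.4 FPKM in Sham (log2 fold change -0.21, limma adjusted p = 0.092, and 0.04 with library weights). Syt6 was at 8.26 FPKM in tMCAO 3 and 13.5 FPKM in Sham 2, the libraries high in striatal markers, against 3.45 to 5.33 FPKM in the other 4. Of Syt9, which can serve fast release, tMCAO 3 held 1.92 FPKM, against 3.70 to 6.30 FPKM in the other 5 libraries, and the gene passed as lower with library weights and with a striatal covariate (adjusted p down to 0.034).

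The other synaptotagmins, most of which do not bind calcium, had 7 tested genes and no call (none at an unadjusted p below 0.05, and none with voom). The groups overlapped in all 7. Syt11 had 136, 132 and 142 FPKM in tMCAO, against 150, 142 and 153 FPKM in Sham (interval of the log2 fold change -0.29 to 0.06). Syt13 had 69.05, 59.3 and 62.5 FPKM in tMCAO, against 62.4, 53.3 and 62.5 FPKM in Sham.

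Of the 8 proteins of the vesicle and its coat, none passed (none at an unadjusted p below 0.05, and none with voom). Syp, the gene of synaptophysin, had 233, 216 and 230 FPKM in tMCAO, against 215, 198 and 211 FPKM in Sham. The groups did not overlap, with tMCAO 2 just above Sham 1, and the log2 fold change was 0.12 (interval -0.07 to 0.31, limma adjusted p = 0.31). Syp shares 16.8% of its exon length with Gm14703 on the opposite strand. Syn1, which ties vesicles to the reserve pool, had 165, 170 and 203 FPKM in tMCAO, against 178, 192 and 180 FPKM in Sham (interval -0.28 to 0.20). Sv2c, whose protein is abundant in the basal ganglia, was at 13.2 FPKM in Sham 2 and at 5.92 to 8.18 FPKM in the other 5 libraries.

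The 4 Rab3 genes, GTPases that recruit vesicles to RIM, had no call (1 at an unadjusted p below 0.05, and none with voom). Rab3a had 192, 178 and 195 FPKM in tMCAO, against 182, 174 and 172 FPKM in Sham (interval of the log2 fold change -0.08 to 0.27). Rab3c had 36.9, 36.2 and 26.3 FPKM in tMCAO 1, 2 and 3, against 51.7, 37.1 and 55.9 FPKM in Sham 1, 2 and 3. It was lowest within each group in tMCAO 3 and Sham 2, and all tMCAO values were below all Sham values. The log2 fold change was -0.52 (SE 0.19, limma adjusted p = 0.095), and the gene passed as lower without Sham 2 and tMCAO 3 (-0.54, adjusted p = 0.022), with library weights and with a striatal covariate (adjusted p = 0.007).

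**Figure D3:**
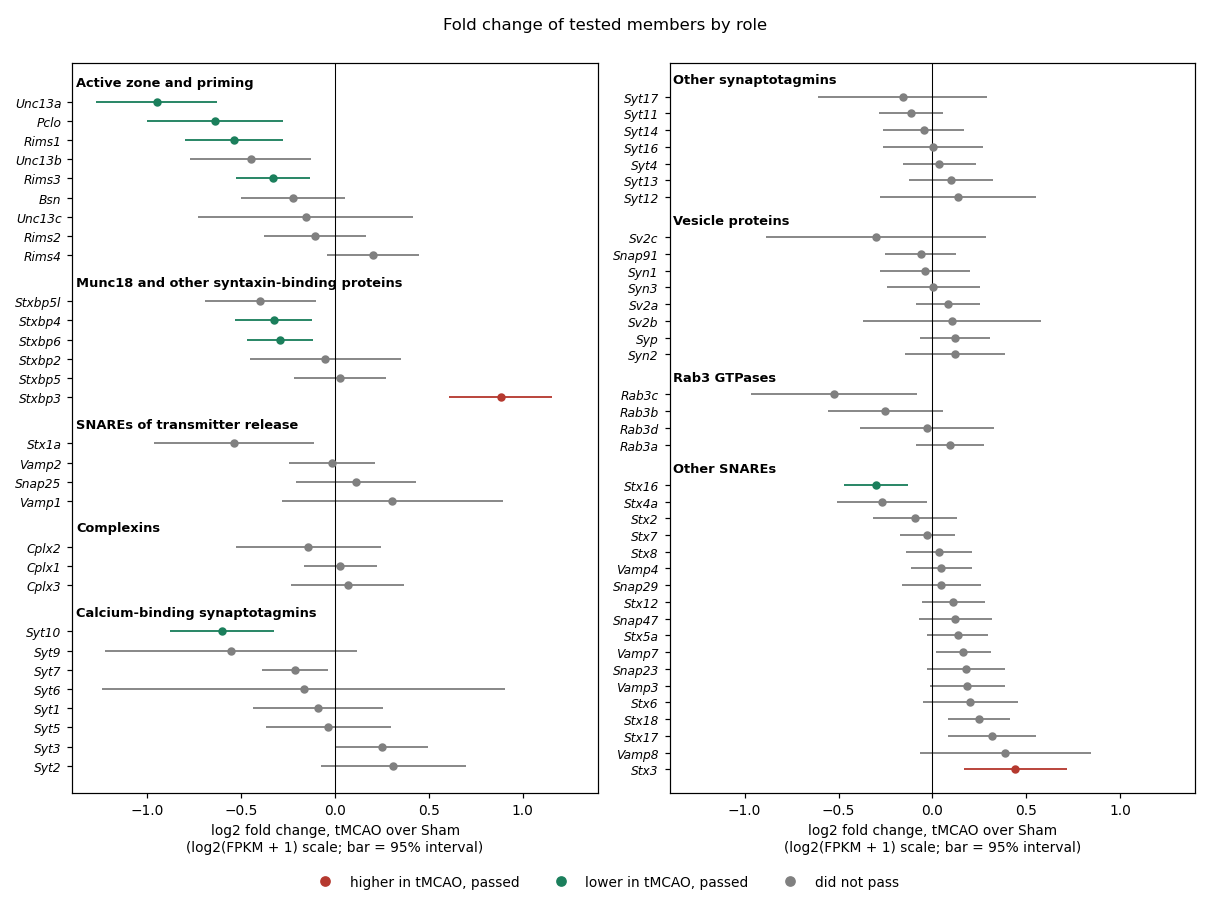
Log2 fold change of 67 of the tested genes (tMCAO over Sham, on the log2(FPKM + 1) scale) with its 95% interval from limma, grouped by role and ordered within each group; red marks genes that rose, green those that fell and grey those that did not pass. The active zone class holds 4 of the 8 genes that fell, with Unc13a lowest at -0.95. Of 18 SNAREs of other membranes 14 lie above 0, a count that may depend on scaling, against 8784 of all 17561 tested genes.

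SNAREs of other membranes had 18 tested genes, with a median log2 fold change of 0.13. Of these, 1 rose, 1 fell and 16 did not pass (11.1% passed, against 16.2% of all tested genes). The log2 fold change was above 0 in 14 and below in 4, against 8784 above and 8777 below among all tested genes. Small changes depended on scaling. With equal FPKM sums that of Snap47 went from 0.123 to 0.05, and that of Stx12 from 0.112 to 0.041. Stx8, Vamp4 and Snap29 were above 0 by less than these shifts, at 0.0358, 0.0475 and 0.0479. The count of 14 may therefore depend on scaling. Stx3, a syntaxin of apical membranes, photoreceptor ribbon synapses and dendritic receptor delivery, had 12.7, 10.1 and 14.0 FPKM in tMCAO 1, 2 and 3, against 9.05, 8.48 and 8.54 FPKM in Sham 1, 2 and 3. Every tMCAO library was above every Sham library, and the log2 fold change was 0.44 (SE 0.12, limma adjusted p = 0.045). This call was lost in 5 of 12 other settings, among them libraries rescaled to an equal sum and the fit without Sham 2 and tMCAO 3 (log2 fold change 0.33, adjusted p = 0.12), and without any 1 Sham library, tMCAO 1 or tMCAO 3 (adjusted p up to 0.15).

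Stx16, a syntaxin of the trans-Golgi network, had 21.1, 23.5 and 20.5 FPKM in tMCAO 1, 2 and 3, against 27.1, 26.5 and 27.1 FPKM in Sham 1, 2 and 3. The Sham libraries were close together and above all tMCAO libraries (log2 fold change -0.30, SE 0.07, limma adjusted p = 0.036). The call was lost without any 1 Sham library, without tMCAO 1, without Sham 2 and tMCAO 3 (adjusted p = 0.077) and in the voom fit of the recovered reads, with an adjusted p of up to 0.14 in the leave-one-out fits. Stx18, of the endoplasmic reticulum, had 11.1, 10.01 and 10.5 FPKM in tMCAO and 9.004, 8.69 and 8.49 FPKM in Sham (limma adjusted p = 0.055). Its reads are uncertain, since 32.3% of its exon length is shared with genes on the opposite strand. The 2 highest genes of the class, Snap47 at 124 ± 6.94 FPKM in tMCAO and 113 ± 7.62 in Sham, and Stx12 at 40.8 ± 1.54 FPKM in tMCAO and 37.7 ± 2.25 in Sham (SD, n = 3 each), overlapped between the groups.

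Stx11, a syntaxin of cytotoxic and other immune cells, lay below the filter and was singled out after its values were seen. It had 0.656, 0.378 and 0.228 FPKM in tMCAO 1, 2 and 3, against 0.0482, 0.0575 and 0.0466 FPKM in Sham 1, 2 and 3, from 312 reads over the tMCAO libraries and 27 over the Sham libraries. All tMCAO values were above all Sham values, and the ratio of the means was 8.28. In the limma fit of unfiltered genes its adjusted p was 0.042. The summed FPKM of 6 neutrophil and monocyte markers ran in the same order among the tMCAO libraries, at 35.1, 10.3 and 7.77 in tMCAO 1, 2 and 3 and at 4.49 to 5.05 in Sham, an order carried by S100a8, S100a9 and Retnlg. Lyz2 ran otherwise, at 3.78, 6.77 and 6.03 FPKM in tMCAO 1, 2 and 3 and 4.06 to 4.91 FPKM in Sham, and Ly6c2 and Ccr2 were near 0 in all libraries. The part of such cells in the Stx11 values was not tested.

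Shares within families do not depend on how the libraries were scaled, and were chosen after the values were seen. Unc13a held 58.5%, 63.5% and 78.3% of the summed Unc13a, Unc13b and Unc13c FPKM in tMCAO 1, 2 and 3, against 75.6%, 78.1% and 77.3% in Sham 1, 2 and 3, with tMCAO 3 above all Sham libraries. In that library Unc13a, Unc13b and Unc13c were all below their Sham levels, Unc13c at 4.21 FPKM against 7.08 to 8.38 in Sham.

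The shares of Rims1 and Rims4 did not overlap between the groups, and those of Rims2 and Rims3 were not computed. In other families the shares of Vamp1, Cplx2, Syn2, Sv2b and Snap23 overlapped. Rims1 held 23.5%, 28.5% and 29.9% of the summed Rims1 to Rims4 FPKM in tMCAO, against 32.4%, 33.9% and 34.2% in Sham. Rims4 held 27.3%, 23.2% and 22.3% in tMCAO, against 17.8%, 18.6% and 16.1% in Sham. The sums include Rims1 and Rims3, which fell, so both shares restate those calls in part and are no separate result. The FPKM of Rims4 itself overlapped, at 16.8 to 21.5 in tMCAO and 15.5 to 17.4 in Sham (limma adjusted p = 0.21).

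**Figure D4:**
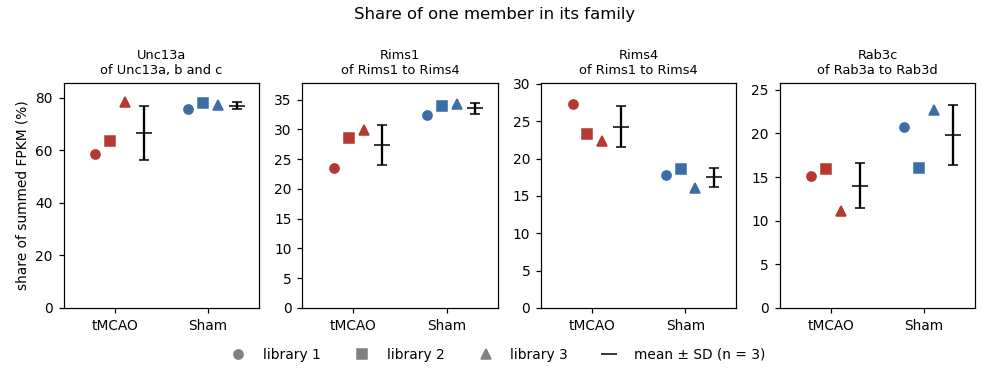
Share of 1 gene in the summed FPKM of its family in percent, with points for the libraries (tMCAO red, Sham blue; circle, square and triangle for libraries 1, 2 and 3) and the mean ± SD of 3 beside them. The Unc13a share of tMCAO 3, 78.3%, lies with the Sham libraries, while the Rims1, Rims4 and Rab3c shares do not overlap between the groups. For Rab3c the groups nearly touch, at 15.87% in tMCAO 2 and 15.99% in Sham 2.

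The libraries of the tMCAO group differed among themselves. Over the 69 genes, tMCAO 1 was the lowest of the 6 libraries in 21 genes and the highest in 17, and tMCAO 3 was the lowest in 7 and the highest in 20. Sham 2 was the lowest in 20 genes and the highest in 10, while Sham 1 was the lowest in 4 and the highest in 3. For the active zone class the median deviation from the gene mean (log2(FPKM + 1) scale) was -0.33, -0.145 and -0.068 in tMCAO 1, 2 and 3, against 0.134, 0.183 and 0.254 in Sham 1, 2 and 3. For calcium-binding synaptotagmins it was -0.105, -0.181 and 0.107 in tMCAO, against 0.032, 0.069 and 0.023 in Sham, so tMCAO 3 was above Sham there. For the SNAREs of other membranes it was 0.08, 0.035 and 0.008 in tMCAO, against -0.045, -0.081 and -0.042 in Sham.

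**Figure D5:**
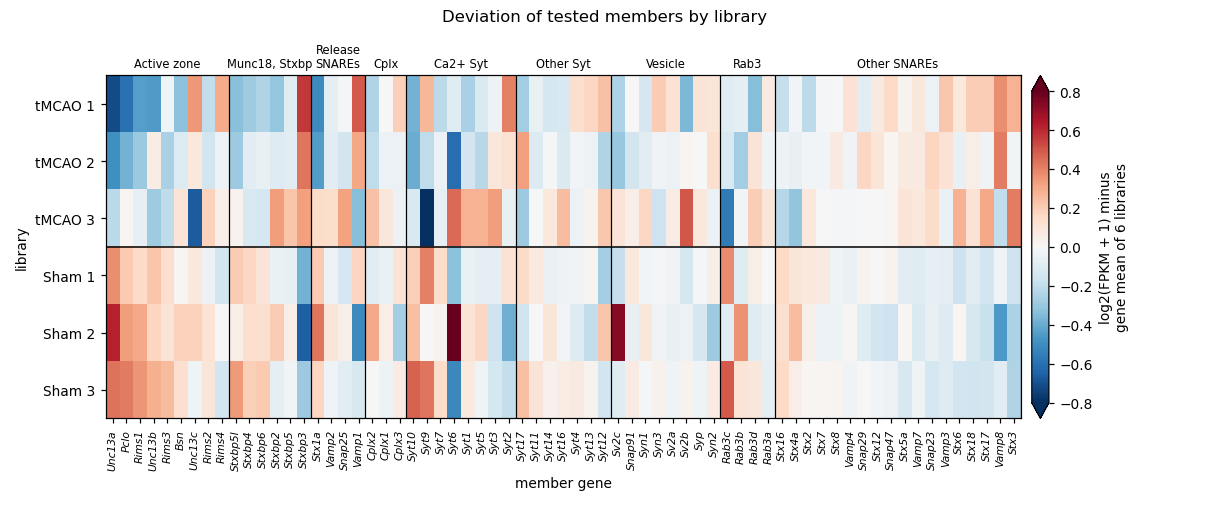
Deviation of 67 tested genes from their means over the 6 libraries on the log2(FPKM + 1) scale, with tMCAO libraries above the black line and Sham libraries below it, and genes grouped by role; colours are capped at 0.8. The left block of active zone genes is mostly blue in tMCAO 1, except Unc13c and Rims4, and mostly red in the Sham libraries, and Syt6 and Sv2c stand out in Sham 2.

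The median exon length was 7667 bases for the 8 genes that fell, 5525.5 bases for the 2 that rose and 4962 bases for the 59 that did not pass. The genes that fell ran from Syt10 at 1845 bases, the shortest of the set, to Pclo at 22457 bases, and Stx16, at 3962 bases, was also below the median of 5205 bases over the tested genes. Across the 69 genes exon length and log2 fold change had a Spearman rho of -0.225, and across 17534 tested genes with a length one of -0.118, both as descriptions over genes of shared libraries. Whether exon length takes part in these differences was not tested.

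Of the wider vesicle cycle, 54 genes outside the name rule were tested, and 4 fell, 1 rose and 49 did not pass (median log2 fold change 0.00). The share that passed was 9.26%, against 16.2% of all tested genes, and the share that fell was 7.41%, against 7.28%, so neither is a result about these genes. Among 10 SNARE recycling and priming cofactors, a small list, 3 fell (30%, against 7.28% of all tested genes). Rph3a encodes rabphilin, a Rab3 effector on vesicles. It had 69.9, 64.9 and 66.1 FPKM in tMCAO 1, 2 and 3, against 96.2, 106 and 99.0 FPKM in Sham 1, 2 and 3 (log2 fold change -0.58, SE 0.07, limma adjusted p = 0.01). All 3 tMCAO libraries, tMCAO 3 included, were alike and far below Sham. Cadps, which encodes the priming factor CAPS-1 of dense-core vesicles, had 15.6, 16.1 and 16.6 FPKM in tMCAO, against 20.3, 19.4 and 20.7 FPKM in Sham (log2 fold change -0.30, limma adjusted p = 0.026). Its paralog Cadps2 had 5.31, 5.60 and 7.30 FPKM in tMCAO, against 8.48, 8.38 and 9.74 FPKM in Sham (log2 fold change -0.49, limma adjusted p = 0.04).

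Among 21 genes of vesicle endocytosis, 1 rose and 1 fell (9.52% passed, against 16.2% of all tested genes). Ap2a2, a subunit of the clathrin adaptor AP-2, had 52.4, 45.3 and 55.3 FPKM in tMCAO, against 38.3, 36.0 and 40.4 FPKM in Sham (log2 fold change 0.40, limma adjusted p = 0.033). Itsn1, the scaffold intersectin-1, had 5.41, 6.31 and 5.04 FPKM in tMCAO, against 7.92, 7.42 and 8.41 FPKM in Sham (log2 fold change -0.44, limma adjusted p = 0.029). Both calls were lost without Sham 2 and tMCAO 3 (adjusted p = 0.084 for Ap2a2 and 0.054 for Itsn1), and none of the 5 calls outside the name rule held without Sham 1 or without Sham 3. No gene passed among 9 other active zone scaffolds (3 at an unadjusted p below 0.05, and 2 with voom), 11 other vesicle membrane proteins (3 and 1) or 3 synucleins (0 and 0). Of the 9 scaffolds, 8 had a log2 fold change below 0.

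In the authors' deposited table, 16 of the 74 genes had an adjusted p below 0.05, 12 lower and 4 higher in tMCAO, against 20.2% of all its genes (9.41% lower and 10.8% higher). The 10 genes that passed limma were among the 16 in the authors' deposited table, in the same direction. The others there were Rab3c, Stx1a, Stxbp5l and Unc13b as lower and Stx11 and Stx17 as higher in tMCAO. Its log2 fold changes, which run Sham over tMCAO, were 0.98 for Unc13a, -1.02 for Stxbp3 and -3.05 for Stx11 (authors' adjusted p = 3.16e-08, 4.65e-09 and 1.73e-07).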

How the data were processed

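RNA was sequenced in 6 right hippocampus libraries, 3 tMCAO and 3 Sham. The deposited values are FPKM computed by the authors, on genome build mm10 per the submitters' processing notes. The authors' comparison table adds each gene's log2 fold change (Sham over tMCAO) and p-values, raw and adjusted, deposited without the name of the test. The sources used here give no aligner, counter or strand setting, so antisense reads cannot be told apart. Sham columns were matched by sample title. tMCAO columns name only the group, so tMCAO 1 to 3 are column numbers.

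limma 3.58.1 (R 4.3.3) was run on log2(FPKM + 1) over 17561 genes of the comparison table with a mean of at least 0.5 FPKM, using lmFit, eBayes with trend, two-sided tests and Benjamini-Hochberg adjustment (threshold 0.05). This scale understates changes of low genes. Since no label says that the libraries came from separate animals, the p-values reflect only spread among the libraries, which may be technical. Whole reads were recovered from the FPKM for 100% of 36452 genes above 0 (tolerance 1e-06 reads, wider for genes with many reads). The GENCODE exon length gave whole reads for 92% of comparison genes, and for the others the shortest length that did so was taken. The 100% therefore rests in part on that search. Exon lengths and positions are from GENCODE M21 (GRCm38). The fit was tested on simulated data. Genes named are those past the threshold, the 2 highest of each role class and, outside the name rule, up to 4 called genes in each direction. Others named beside them were chosen after their values were seen. Some results of the set are not reported here. Members, lists and roles were chosen with earlier results of these data known. Alternatives changed the pseudocount (0.1), filter (none, or a mean of at least 2 FPKM), scaling, variance model, gene table, covariates and libraries, or ran voom on the recovered reads.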

Additional observations from a re-analysis of the deposited data

How the results depend on the processing

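Of the 10 genes past the threshold, Unc13a, Rims1, Pclo, Stxbp3 and Syt10 passed in each of 12 other settings beside the leave-one-out fits, and no gene past the threshold changed direction in any fit. The count of 10 became 16 with library weights and 16 with a striatal covariate, or 23.2% of the tested genes each, while leaving out 1 library gave 0 to 12. Over all tested genes 2847 (16.2%) became 4913 (28%) with library weights, 3970 (22.6%) with the striatal covariate and 75 to 3896 with 1 library left out. Equal FPKM sums gave 1052 higher and 1596 lower, against 1569 and 1278. The 5 pathway genes became 11 with quantile normalization, 12 with library weights, 8 with voom and 13 with the striatal covariate, and 0 to 8 with 1 library left out. The median log2 fold change of the 69 genes, -0.026, was -0.088 with equal sums (all genes -0.056), -0.076 with quantile normalization, 0.016 with the striatal covariate and between -0.089 and 0.02 with 1 library left out. The cause of these shifts was not tested beyond the smaller fits. Among 15 genes of high level in their class that did not pass, 3 of 270 values under alternatives passed, all of Rab3c, and the sign differed in 18 values of 7 genes without a call. No paired analysis was possible because the tMCAO columns could be matched only to their group, and no label ties a numbered tMCAO column to a Sham library of the same number by animal, litter, batch or day. The fold change scale compresses genes below a few FPKM, such as Stxbp4.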
